A study of Saccharomyces cerevisiae with 15 samples.

Results

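The genes described here are 40 budding yeast genes of autophagy and of the vacuolar proteases, among 7127 gene identifiers listed in every count file. They were chosen by name, with earlier results of these data known. They are numbered ATG genes together with VPS34, VPS30 and the hydrolases PEP4, PRB1, PRC1 and LAP4. Of these, 30 belong to the core machinery or are other ATG genes, 6 encode receptors of selective autophagy (ATG19, ATG32, ATG34, ATG36, ATG39 and ATG40) and 4 encode vacuolar proteases. All 40 were found in the R64 annotation with the coding length that the files give, and LAP4 is listed there as APE1.

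In autophagy, a double membrane closes around cytoplasm or a chosen cargo and delivers it to the vacuole, the lysosome of yeast, where proteases and a lipase degrade it. The Atg1 kinase complex starts the process when nutrients are short, the Vps34 lipid kinase marks the growing membrane, vesicles with Atg9 and the lipid transfer protein Atg2 supply it, and a ubiquitin-like system attaches Atg8 to it. Receptors tie a cargo such as mitochondria, peroxisomes or endoplasmic reticulum to Atg8. The vacuolar proteases are made as inactive precursors that are matured in the vacuole, largely through proteinase A and proteinase B.

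The series asked how loss of the mRNA-binding protein Cth2 bears on replicative ageing in yeast and on its mitochondria. Wild type was the Mother Enrichment Program strain UCC8773, and the cth2 deletion strain was derived from it and lacks CTH2, listed in the files as TIS11. In this program estradiol switches on a Cre recombinase expressed from the daughter-specific SCW11 promoter, which removes essential genes in daughters, so that mother cells go on dividing while daughters stop. Both strains therefore carry the Cre and its target alleles, were precultured in rich medium (YPD) with nourseothricin and hygromycin B, were labelled with biotin, were kept with 1 uM estradiol and were isolated on magnetic beads that bind the biotin. Young cells had grown for 2 h and old cells for 30 h, with fresh medium added to the old cultures during that time. RNA-seq measured poly(A) mRNA, and ribosome profiling measured the mRNA fragments protected by single ribosomes, here called footprints, from aliquots of the same lysates. There were 15 libraries in 8 groups, with 2 libraries per strain, age and assay except 1 for mRNA of the old deletion strain.

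Total counts ranged from 1629345 to 6198680 per library, so that 3 counts, taken as the floor, corresponded to between 0.570 and 1.58 CPM (counts relative to the library's total after TMM scaling, which corrects totals for a few very abundant genes). TIS11 had 28 to 60 counts in the young wild-type libraries, 288 to 516 in the old ones, 1 to 3 in the young deletion libraries, and 11, 2 and 17 in the 3 old deletion libraries. The young libraries stood apart within each strain: the summed CPM of 10 genes induced when glucose runs low, such as HSP12 and HSP26, was 7221 in wild-type mRNA library 1 and 2063 in library 2, but 2011 in deletion library 1 and 6349 in library 2. In footprints the same sums were 9962 and 3199 for young wild type and 3162 and 10090.0 for the young deletion strain. None of these 10 genes was at 0 in any group. The sums of the old libraries lay between 1768 and 4433. All these sums rest mostly on a few abundant genes. Mean CPM in young wild-type mRNA was 1591 for HSP26, 1325 for YGP1 and 1028 for HSP12, but 16.4 for ADH2 and 4.28 for FBP1. Not every gene shared the order of the sums: ADH2 mRNA was higher in both young deletion libraries than in both wild-type ones (means 19.3 and 16.4 CPM). What set young wild-type library 1 and young deletion library 2 apart was not tested, and values without 1 of the young libraries are given beside the age differences of the genes described in most detail.

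Among the members, levels per kilobase of coding length in young wild-type mRNA were highest for the proteases PEP4 (YPL154C, proteinase A, an aspartyl protease) at 788 CPM per kb and PRC1 (YMR297W, carboxypeptidase Y) at 505 CPM per kb. ATG27, a membrane protein of Atg9 trafficking, followed at 187, PRB1 (YEL060C, proteinase B, a subtilisin-like serine protease) at 140, ATG8 at 137 and LAP4 (YKL103C, aminopeptidase I, a cargo of the cytoplasm-to-vacuole pathway) at 118 CPM per kb. Neighbours in that order from ATG27 to LAP4 differed by less than the 3.22-fold gap between the PRB1 libraries. At the low end lay ATG15, the vacuolar lipase of autophagic bodies, at 6.73, ATG39 at 7.37, ATG11 at 7.62 and ATG32 at 8.00 CPM per kb. ATG16, the partner of the Atg12-Atg5 conjugate, had 0 to 4 counts in every mRNA library and 1 to 7 in every footprint library, and was below the filter on low counts in each fit. Footprint levels per kilobase in young wild type kept the proteases at the top, with PEP4 at 809, PRC1 at 586, PRB1 at 528 and LAP4 at 364 CPM per kb.

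Most members were higher in the same young libraries. PRB1 mRNA was at 406 CPM in young wild-type library 1 and 126 in library 2, and at 135 in young deletion library 1 and 490 in library 2. Its footprints were at 1535 and 480 CPM in young wild type and at 534 and 1812 in the young deletion strain. For ATG41, which binds Atg9 and is needed for efficient autophagosome formation, the footprints were at 137 and 22.0 CPM in young wild type and at 34.3 and 153 in the young deletion strain. ATG41 mRNA was at 44.0 and 13.7 CPM in young wild type and at 12.7 and 58.8 in the young deletion strain. In both genes wild-type library 1 and deletion library 2 were the high ones. ATG8 footprints were at 84.9 and 39.3 CPM in young wild type and at 51.6 and 136 in the young deletion strain, and LAP4 footprints at 775 and 348 and at 437 and 826, in the same order of high and low. Their mRNA followed that order too: ATG8 was at 62.8 and 34.3 CPM in young wild type and at 42.7 and 65.4 in the young deletion strain, and LAP4 at 250.0 and 113 and at 130.0 and 324.

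Of 39 members measured in mRNA, 26 were higher in both wild-type library 1 and deletion library 2, a pattern that 35.6% of all genes showed. In footprints it was 31 of 38 members, against 39.3% of all genes. The ratio was at least 2-fold in both strains for ATG1 (the kinase that starts autophagy), ATG41, PRB1 and LAP4 in mRNA, against 3.56% of all genes, and for ATG41, ATG8, ATG5, ATG39 and PRB1 in footprints, against 6.05%. Across members, the log2 ratio of library 1 over library 2 in wild type had a Pearson correlation of -0.744 with that in the deletion strain in mRNA (39 members) and -0.821 in footprints (38 members). Both assays of a library number come from aliquots of 1 lysate. Replicates of old cells were closer. None of the members differed 2-fold between the old wild-type libraries of either assay, against 1.65% of all genes in mRNA and 1.26% in footprints. Between the old deletion footprint libraries 1 member did, against 2.07% of all genes. Between young libraries it was 10.8% to 13.0% of all genes, so the closeness of old replicates was not particular to the members. The plot of the young libraries against each other shows these ratios gene by gene.

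**Figure D1:**
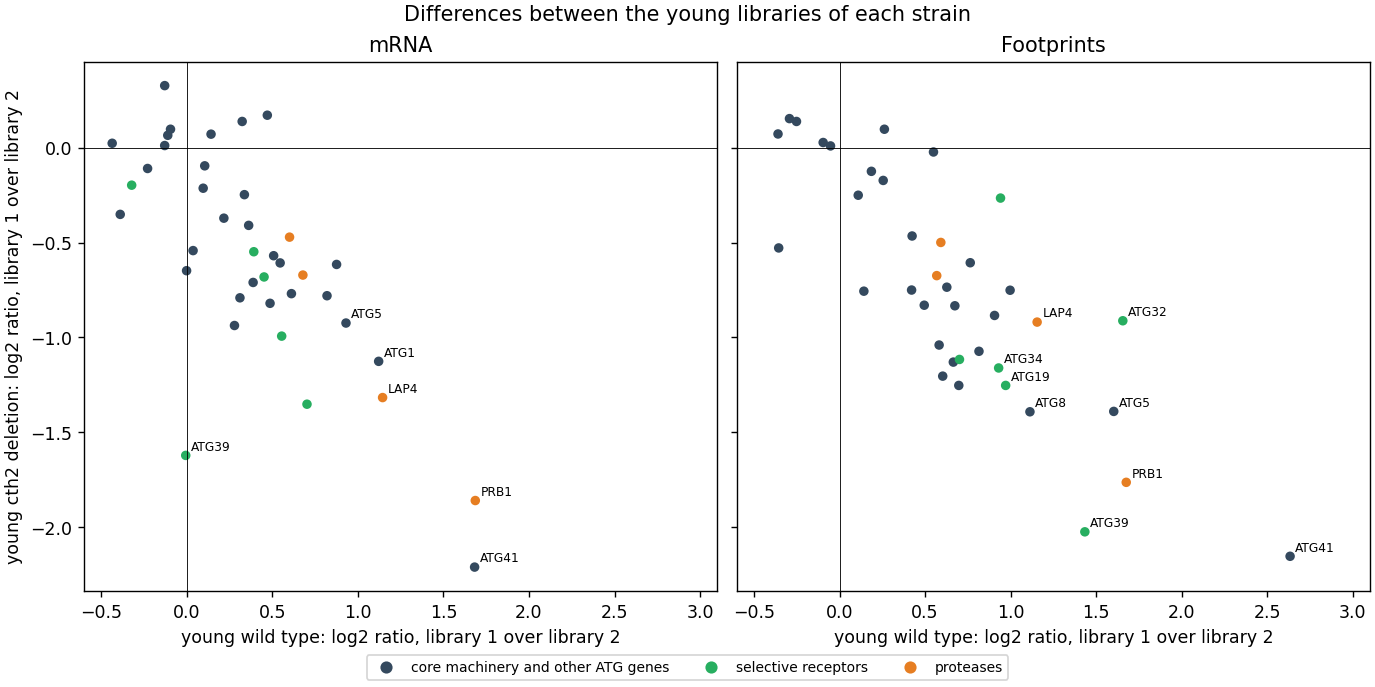
Each point is a member, placed by its log2 ratio of library 1 over library 2 in young wild type (horizontal axis) and in the young cth2 deletion strain (vertical axis), for mRNA on the left and footprints on the right. Most members lie at the lower right, higher in wild-type library 1 and in deletion library 2, with PRB1 and ATG41 among the farthest out in both assays.

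The upstream sequences of 5 members are given as examples: ATG8, PRB1 and LAP4 for the difference between the young libraries, ATG32 and ATG11 for the difference between old and young cells. They are not all the genes of these results. ATG41, whose footprints differed most between the young libraries of each strain, and VPS30, called with age, are not shown. Each is the coding-strand sequence, 5′ to 3′, from 350 to 51 bases before the start codon in the R64 reference genome (RefSeq), and capitals mark matches on either strand to AGGGG (the stress response element, bound by the factors Msn2 and Msn4), GATAAG (bound by GATA factors such as Gln3) or TGACTC (the Gcn4 core). The ATG8 window is chrII:80782-81081 on the minus strand and runs into the coding sequence of YBL076C. The PRB1 window is chrV:42004-42303, the LAP4 window chrXI:247733-248032, the ATG32 window chrIX:75824-76123 and the ATG11 window chrXVI:664724-665023, all on the minus strand, and the last overlaps the coding sequence of YPR051W.
ATG8: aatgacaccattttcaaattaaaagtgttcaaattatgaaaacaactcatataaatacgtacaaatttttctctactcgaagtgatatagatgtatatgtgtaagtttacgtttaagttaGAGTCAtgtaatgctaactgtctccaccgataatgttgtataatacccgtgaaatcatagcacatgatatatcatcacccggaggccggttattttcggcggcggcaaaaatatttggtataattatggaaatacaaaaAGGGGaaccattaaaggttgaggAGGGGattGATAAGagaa
PRB1: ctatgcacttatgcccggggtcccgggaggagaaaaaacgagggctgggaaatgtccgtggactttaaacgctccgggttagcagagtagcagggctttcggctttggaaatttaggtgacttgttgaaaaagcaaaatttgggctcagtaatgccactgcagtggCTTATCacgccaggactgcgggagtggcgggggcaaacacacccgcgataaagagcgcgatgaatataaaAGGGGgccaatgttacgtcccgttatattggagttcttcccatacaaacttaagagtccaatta
LAP4: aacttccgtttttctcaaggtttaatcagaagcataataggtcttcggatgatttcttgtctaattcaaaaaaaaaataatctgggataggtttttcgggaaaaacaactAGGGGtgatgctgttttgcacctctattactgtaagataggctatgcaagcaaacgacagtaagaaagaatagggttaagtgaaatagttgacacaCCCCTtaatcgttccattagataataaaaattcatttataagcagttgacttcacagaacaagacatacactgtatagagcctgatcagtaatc
ATG32: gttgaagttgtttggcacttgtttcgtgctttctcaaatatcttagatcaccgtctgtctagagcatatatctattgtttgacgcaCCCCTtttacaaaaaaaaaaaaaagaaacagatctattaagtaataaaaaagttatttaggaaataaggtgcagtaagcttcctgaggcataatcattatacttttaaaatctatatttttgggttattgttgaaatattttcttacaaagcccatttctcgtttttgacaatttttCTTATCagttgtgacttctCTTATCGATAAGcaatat
ATG11: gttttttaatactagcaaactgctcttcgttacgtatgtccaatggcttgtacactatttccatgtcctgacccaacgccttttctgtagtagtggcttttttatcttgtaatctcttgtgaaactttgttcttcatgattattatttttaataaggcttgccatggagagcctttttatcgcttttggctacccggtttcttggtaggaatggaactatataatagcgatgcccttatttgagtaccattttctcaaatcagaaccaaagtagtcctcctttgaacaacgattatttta

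The ATG32 window has GATAAG matches that begin 87, 68 and 62 bases before the start codon and AGGGG at 264. ATG8 has AGGGG at 91 and 68, GATAAG at 60 and TGACTC at 230 bases before its start codon, PRB1 has GATAAG at 184 and AGGGG at 114, and LAP4 has AGGGG at 240 and 144. No match lies in the ATG11 window. Of the other members at least 2-fold apart between the young libraries of both strains, ATG1, ATG5 and ATG41 held no match, and ATG39 held GATAAG and AGGGG. Over all members, AGGGG was found on either strand in 18 of 40 windows (45% against 22.9% of 5988 windows of the same length), GATAAG in 14 (35% against 14.3%), TGACTC in 6 (15% against 8.07%) and AGCCGCC, the core of the Ume6 site, in 1, that of VPS30 (2.5% against 2.51%). Because Cth2 binds AU-rich elements, the coding strand of the 300 bases after the stop codon was searched for TATTTATT, which was in none of the 40 members and in 7.75% of 5989 genes. These are exact letter matches, which miss sites that differ by any base, and not measured binding. The ATG8 window, for example, holds ggcggca, where the other strand of AGCCGCC reads GGCGGCT.

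With age, few members passed the test. In edgeR's quasi-likelihood test with Benjamini-Hochberg adjustment over all genes, called at an adjusted p under 0.05, the members called were 0 of 39 in wild-type mRNA, 1 of 38 in wild-type footprints and 3 of 38 in footprints of the deletion strain. The shares of all tested genes called were 0.951%, 2.98% and 17.2%. Of the calls, 1 of 1 in wild type and 2 of 3 in the deletion strain were higher in old cells, where 2.02% and 9.16% of all genes were called higher and 0.961% and 8.06% lower. At an unadjusted p under 0.05, 5 members passed in wild-type mRNA, 3 higher and 2 lower, against 19.9% of all genes (10.3% higher and 9.6% lower), and DESeq2 called 2 of 39, against 4.34% of all genes. In footprints it was 3 members in wild type, against 22.9% of all genes, and 7 in the deletion strain, against 36.4%. In wild-type mRNA 10 members were higher in both old libraries than in both young ones and 10 were lower, against 30.1% and 27.8% of all genes. In footprints the same counts were 10 and 6 in wild type, against 30.7% and 27.3%, and 10 and 9 in the deletion strain, against 33.4% and 31.9%. The median difference of the members (log2 fold change, old minus young) was -0.04 in wild-type mRNA, 0.05 in wild-type footprints and -0.01 in footprints of the deletion strain, where that of all genes was -0.01, 0.01 and 0. In these bulk samples fewer cells of a kind and less RNA per cell cannot be told apart.

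**Figure D2:**
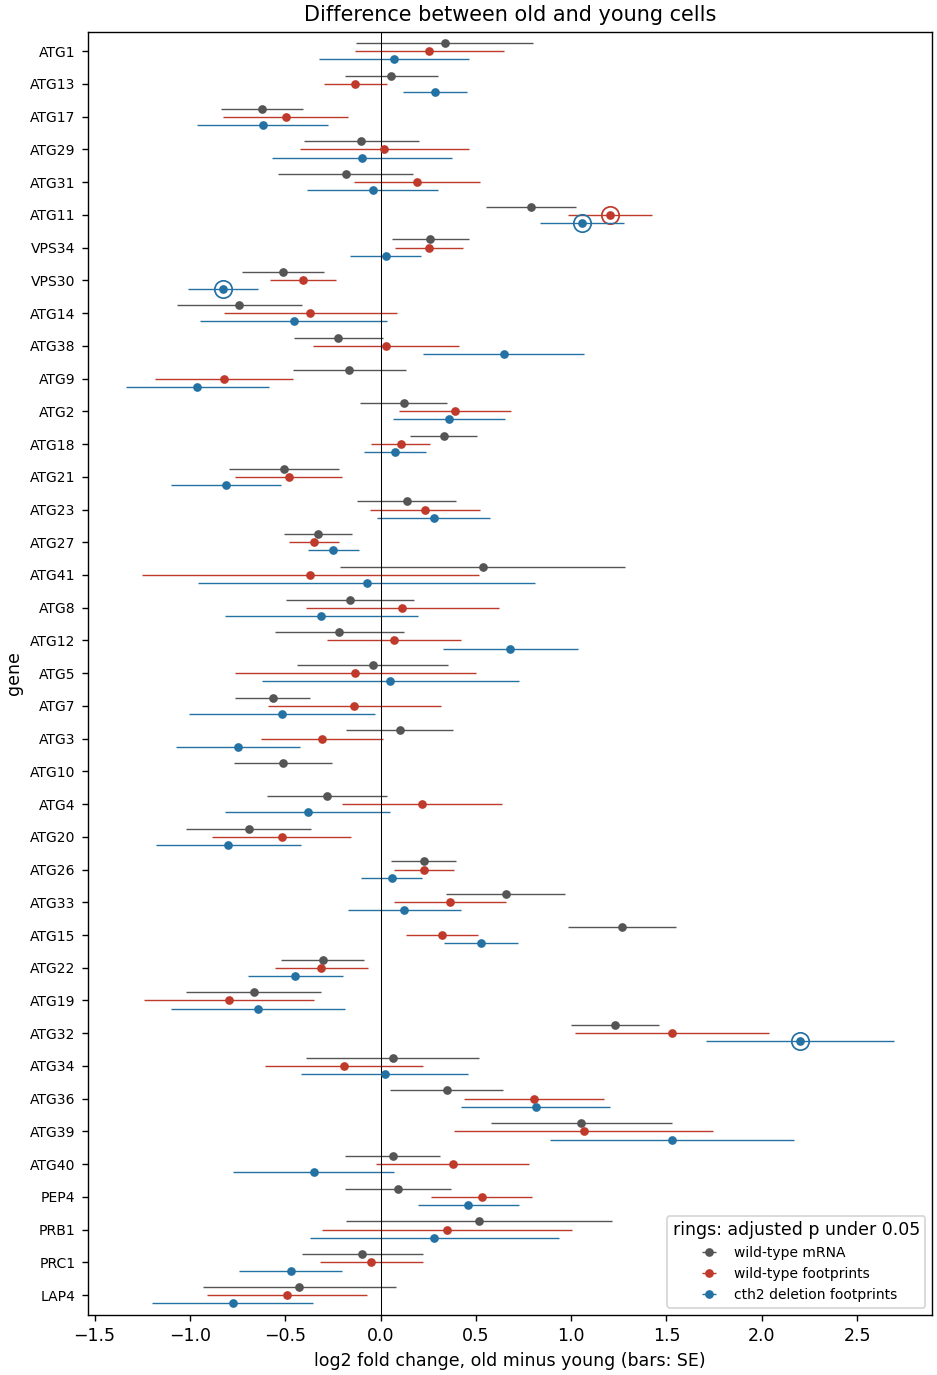
The horizontal axis is the log2 fold change of old minus young cells with its standard error, by gene, for wild-type mRNA (grey), wild-type footprints (red) and footprints of the cth2 deletion strain (blue), with rings at an adjusted p under 0.05. Rings fall on ATG11 in both strains and on ATG32 and VPS30 in the deletion strain. The standard errors were derived from the F statistic of the edgeR test.

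ATG11 (YPR049C, R64 chrXVI:661137-664673, minus strand), the scaffold that links receptors and their cargo to the Atg1 kinase, rose in footprints of both strains. Its wild-type footprints were at 17.8 and 21.2 CPM in young cells and at 37.5 and 52.3 CPM in old cells, with no overlap. The log2 fold change was 1.20 ± 0.22 (SE), with an adjusted p of 0.0398 in edgeR's quasi-likelihood test. In the deletion strain its footprints were at 26.2 and 23.8 CPM in young cells and at 57.3 and 46.7 in old cells, a log2 fold change of 1.06 ± 0.22 with an edgeR adjusted p of 0.0250. ATG11 mRNA in wild type was at 28.3 and 25.6 CPM in young cells and at 38.0 and 55.3 in old cells, which did not pass after adjustment (log2 fold change 0.79 ± 0.24, edgeR adjusted p 0.160). The wild-type footprint value was 1.08 without young library 1 (edgeR adjusted p 0.134) and 1.33 without young library 2 (0.0853), and the adjusted p without old library 1 or old library 2 was 0.101 and 0.302. In the deletion strain the value was 1.12 without young library 1 (edgeR adjusted p 0.0336) and 0.98 without young library 2 (0.0864), and the adjusted p was 0.146 and 0.117 without old library 1 and 2.

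The other members of the kinase complex did not pass in any age comparison. ATG1 mRNA was at 39.9 and 18.3 CPM in young wild type and at 36.6 and 36.1 in old wild type, and its footprints at 36.7 and 18.4 and at 30.9 and 34.9, so that the old values lay between the young ones. The log2 fold change of ATG1 mRNA was 0.34 ± 0.46, with 0.99 without young library 1 and -0.13 without young library 2. ATG1 mRNA in the deletion strain was at 19.5 and 42.6 CPM in young cells and at 44.2 in the old library. In the deletion strain ATG1 footprints were at 26.9 and 45.2 CPM in young cells and at 46.8 and 30.7 in old cells. ATG17, the scaffold of the starvation-induced complex, was lower in wild-type mRNA at an unadjusted p under 0.05 (log2 fold change -0.62 ± 0.22, edgeR adjusted p 0.200), with 30.2 and 35.4 CPM in young and 23.2 and 19.4 in old cells. ATG13, ATG29 and ATG31, which bind Atg1 or Atg17, had log2 fold changes between -0.18 and 0.29 over the 3 age comparisons.

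VPS30 (YPL120W, R64 chrXVI:322071-323744, plus strand), the yeast Beclin and a subunit of the Vps34 kinase complexes, fell in footprints of the deletion strain. They were at 29.7 and 27.8 CPM in young cells and at 15.2 and 16.9 CPM in old cells, with no overlap (log2 fold change -0.83 ± 0.19, edgeR adjusted p 0.0289). In wild type the VPS30 footprints were at 29.1 and 24.2 CPM in young and at 21.4 and 18.8 in old cells (log2 fold change -0.41 ± 0.18, edgeR adjusted p 0.221), and the difference between the strains in this response was not called (log2 -0.42 ± 0.25, edgeR adjusted p 1.00). VPS30 mRNA was at 33.3 and 45.1 CPM in young and 27.8 and 27.4 in old wild type, and at 37.5 and 36.8 and, in 1 old library, at 29.1 in the deletion strain. DESeq2 gave the VPS30 decline an adjusted p of 0.0617. Without young library 1 or 2 of the deletion strain the edgeR adjusted p was 0.0508 and 0.0715, with log2 fold changes of -0.78 and -0.88, and without old library 1 or 2 it was 0.159 and 0.146. VPS34, the lipid kinase itself, had log2 fold changes of 0.26, 0.26 and 0.03 in wild-type mRNA, wild-type footprints and deletion footprints. ATG14, which directs the kinase to autophagy, was at 25.8 and 20.8 CPM in young and 12.7 and 15.1 in old wild-type mRNA (log2 fold change -0.74 ± 0.33, edgeR adjusted p 0.260). ATG14 mRNA in the deletion strain was at 15.8 and 27.3 CPM in young cells and 13.8 in the old library, and its footprints lay between 2.48 and 5.70 CPM in every library. ATG38, which holds that complex together, had log2 fold changes of -0.22, 0.03 and 0.65.

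Among the genes of Atg9 vesicles and lipid transfer, 0 of 7 were called in the 3 age comparisons by edgeR, and 1 was below an unadjusted p of 0.05 in wild-type footprints (ATG27) and 2 in deletion footprints (ATG9 and ATG21). ATG9, the lipid scramblase of the seed vesicles, had footprints at 37.5 and 25.1 CPM in young and 16.6 and 18.8 in old wild type (log2 fold change -0.82 ± 0.36, edgeR adjusted p 0.228). In the deletion strain they were at 22.3 and 45.8 CPM in young and at 15.8 and 19.4 in old cells (log2 fold change -0.96 ± 0.37, edgeR adjusted p 0.116). The ATG9 value was -0.51 without young library 1 and -1.09 without library 2 in wild type, and -1.37 and -0.33 in the deletion strain. ATG9 mRNA lay between 24.5 and 40.02 CPM in every library, and the groups overlapped. ATG21, a PI3P-binding protein that helps place the Atg8 machinery, had deletion footprints at 41.4 and 69.6 CPM in young and 27.9 and 35.4 in old cells (log2 fold change -0.81 ± 0.29, edgeR adjusted p 0.0937), with -1.13 without young library 1 and -0.38 without library 2. In wild type ATG21 footprints were at 54.5 and 40.7 CPM in young and 32.1 and 36.0 in old cells. ATG21 mRNA was at 60.3 and 41.3 and at 32.0 and 39.4 CPM in wild type, and at 48.6 and 74.0 and, in 1 old library, 41.0 in the deletion strain. For both genes all old footprint values lay below all young ones within each strain. ATG41 had no such order: its footprints in old cells were at 70.7 and 52.1 CPM in wild type and at 105 and 75.5 in the deletion strain, between the young values of the same strain. ATG41 mRNA in old cells was at 44.5 and 37.8 CPM in wild type, and 62.7 CPM in the single deletion library. ATG2, ATG18, ATG23 and ATG27 had log2 fold changes between -0.35 and 0.39.

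Conjugation genes were not called either (0 of 7 tested in mRNA and 0 of 6 in footprints by edgeR, with 1 below an unadjusted p of 0.05 in wild-type mRNA and none in footprints). That gene was ATG7, the E1-like enzyme shared by Atg8 and Atg12, with 41.8 and 39.1 CPM in young and 26.2 and 28.5 in old wild-type mRNA (log2 fold change -0.57 ± 0.20, edgeR adjusted p 0.199). ATG8 footprints in old cells were at 67.4 and 67.0 CPM in wild type and at 89.3 and 63.6 in the deletion strain, between the young values of each strain. ATG8 mRNA in old cells was at 42.6 and 43.8 CPM in wild type, and 60.2 CPM in the single deletion library. The log2 fold change of ATG8 footprints in wild type was 0.11 ± 0.51 with all libraries, 0.77 without young library 1 and -0.34 without young library 2. The other conjugation genes, ATG3, ATG4, ATG5, ATG10 and ATG12, had log2 fold changes between -0.75 and 0.68.

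No call was made by edgeR among the vacuolar lipase ATG15, the exporter ATG22 and the factors of selective pathways, with 1 below an unadjusted p of 0.05 in wild-type mRNA, 0 in wild-type footprints and 1 in deletion footprints, ATG15 each time. ATG15 (YCR068W) mRNA was at 9.11 and 11.9 CPM in young and at 22.5 and 28.7 in old wild type (log2 fold change 1.27 ± 0.28, edgeR adjusted p 0.109), with both old libraries above both young ones. DESeq2 called it, with an adjusted p of 0.0485. ATG15 footprints were at 22.3 and 23.1 CPM in young and at 24.1 and 32.8 in old wild type (log2 fold change 0.32 ± 0.19, edgeR adjusted p 0.331), and at 20.9 and 20.7 and at 30.5 and 29.5 CPM in the deletion strain. ATG20, a sorting nexin of selective autophagy, was at 82.3 and 67.9 CPM in young and 41.0 and 52.0 in old wild-type mRNA (log2 fold change -0.69 ± 0.33, edgeR adjusted p 0.287), and its footprints there were at 55.9 and 29.8 and at 30.1 and 29.7 CPM (-0.52 ± 0.37, edgeR adjusted p 0.413), with 0.001 without young library 1 and -0.91 without library 2. ATG20 mRNA in the deletion strain was at 53.3 and 102 CPM in young cells and 51.2 in the old library, and its footprints at 31.8 and 58.7 and at 24.2 and 28.2 CPM, so that every old value was below both young ones. ATG33, a mitochondrial outer membrane protein of mitophagy, ATG26, a sterol glucosyltransferase needed for pexophagy in Pichia pastoris, and ATG22, a vacuolar amino acid exporter, had log2 fold changes between -0.45 and 0.66 over the 3 comparisons.

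**Figure D3:**
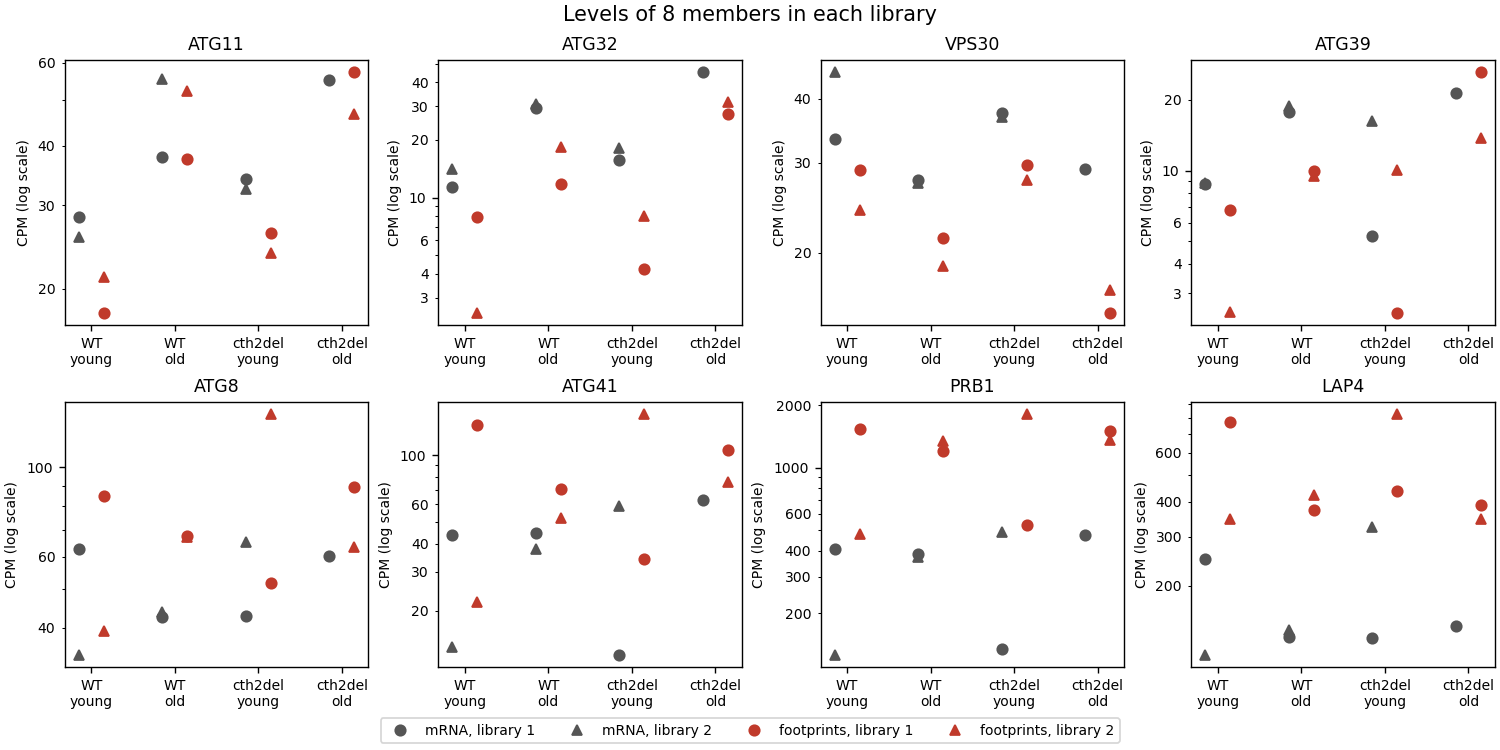
Each panel gives the CPM (log scale) of 1 gene by group, with circles for library 1, triangles for library 2, grey for mRNA and red for footprints; WT is wild type and cth2del the cth2 deletion strain. ATG11, ATG32 and ATG39 are higher and VPS30 is lower in old cells, whereas ATG8, ATG41, PRB1 and LAP4 spread widely in young cells and lie between those values, or near them, in old cells.

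The receptors included the gene with the largest log2 fold change of all members in both footprint comparisons of age, ATG32 (YIL146C, R64 chrIX:74184-75773, minus strand), the mitochondrial outer membrane protein that recruits mitochondria for mitophagy. Its footprints in the deletion strain rose from 4.24 and 7.98 CPM in young cells to 27.3 and 31.3 CPM in old cells (log2 fold change 2.20 ± 0.49, edgeR adjusted p 0.0292). In wild type ATG32 footprints were at 7.90 and 2.51 CPM in young and at 11.8 and 18.3 CPM in old cells (log2 fold change 1.53 ± 0.51, edgeR adjusted p 0.149), with 2.57 without young library 1 and 0.92 without young library 2. ATG32 mRNA in wild type was at 11.3 and 14.2 CPM in young and at 29.4 and 30.7 in old cells (log2 fold change 1.23 ± 0.23, edgeR adjusted p 0.0773), which DESeq2 called with an adjusted p of 0.0254. In each of these comparisons both old libraries lay above both young ones. The young footprint values rest on few reads: 3 counts were 0.836 CPM in young wild-type library 2 and 1.06 CPM in young deletion library 1. The deletion value stayed called without either young library (log2 fold change 1.88, edgeR adjusted p 0.0431 without library 1; 2.78, adjusted p 0.0478 without library 2), but not without old library 1 (0.131) or old library 2 (0.170).

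ATG39, the receptor of the perinuclear endoplasmic reticulum, was at 8.80 and 8.84 CPM in young and 17.8 and 18.9 in old wild-type mRNA (log2 fold change 1.05 ± 0.48, edgeR adjusted p 0.268). Its footprints in the deletion strain were at 2.48 and 10.1 CPM in young and 26.3 and 13.8 in old cells (1.53 ± 0.64, edgeR adjusted p 0.136), and without young library 1 the log2 value was 0.94 and without library 2 it was 2.95. In wild type ATG39 footprints were at 6.77 and 2.51 CPM in young and 9.95 and 9.51 in old cells. The lowest young footprint values of ATG39, like those of ATG32, rest on few reads. ATG36, the pexophagy receptor, had wild-type footprints at 10.2 and 5.29 CPM in young and 10.6 and 16.5 in old cells (0.81 ± 0.37, edgeR adjusted p 0.240), with 1.35 without young library 1 and 0.41 without library 2. Its deletion footprints were at 6.01 and 7.22 and at 10.5 and 12.9 CPM, and its mRNA lay between 14.9 and 26.2 CPM in every library. ATG36 footprints were thus higher in both old libraries than in both young ones in each strain. ATG19, the receptor of aminopeptidase I, lay on the other side, with mRNA at 127 and 86.4 CPM in young and 63.9 and 70.3 in old wild type (-0.67 ± 0.36, edgeR adjusted p 0.333), with -0.37 without young library 1 and -0.92 without library 2. Its mRNA in the deletion strain was at 72.8 and 145 CPM in young cells and 79.4 in the old library. Its footprints were at 92.3 and 47.1 and at 39.4 and 40.8 CPM in wild type (-0.80 ± 0.45, edgeR adjusted p 0.317), and at 37.5 and 89.3 and at 37.3 and 44.5 CPM in the deletion strain (-0.64 ± 0.46, edgeR adjusted p 0.340). Without young library 1 or 2 the wild-type value was -0.23 and -1.21, and the deletion value -1.12 and 0.13. ATG34, a paralogue of ATG19 that carries alpha-mannosidase, and ATG40, a receptor of the endoplasmic reticulum, had log2 fold changes between -0.35 and 0.38. The median over the 6 receptors was 0.21 in wild-type mRNA, 0.59 in wild-type footprints and 0.42 in deletion footprints.

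None of the 4 proteases was called with age by edgeR in any of the 3 comparisons, and none had an unadjusted p under 0.05. DESeq2 called none of them either. PEP4 mRNA was at 1156 and 763 CPM in young and 1007 and 1039 in old wild type, and at 876 and 1214 in young and 923 in old deletion cells. PEP4 footprints were at 1185 and 786 CPM in young and 1249 and 1599 in old wild type (log2 fold change 0.53 ± 0.27, edgeR adjusted p 0.272), and at 893 and 1262 and at 1405 and 1561 CPM in the deletion strain (0.46 ± 0.27, edgeR adjusted p 0.248), with both old libraries above both young ones in each strain. Without young library 1 or 2 the PEP4 footprint value was 0.86 and 0.26 for wild type, and 0.23 and 0.73 for deletion cells. PRC1 mRNA was at 994 and 621 CPM in young and 794 and 717 in old wild type, and its deletion footprints at 818 and 1305 and at 769 and 762 CPM (-0.47 ± 0.27, edgeR adjusted p 0.245), with -0.77 without young library 1 and -0.10 without library 2. PRC1 mRNA in the deletion strain was at 678 and 1080.0 CPM in young cells and 571 in the old library. In wild type PRC1 footprints were at 1120.0 and 755 and at 866 and 947 CPM, which overlap.

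The age difference of PRB1 in both strains, and that of LAP4 in wild type, changed sign with the young library left out. PRB1 footprints in old cells were at 1211 and 1353 CPM in wild type and at 1496 and 1359 in the deletion strain, between the young values in both strains, and PRB1 mRNA was at 387 and 373 CPM in old wild type. The log2 fold change of PRB1 footprints in wild type was 0.35 ± 0.65 with both young libraries, 1.42 without library 1 and -0.26 without library 2. LAP4 footprints in old cells were at 375 and 424 CPM in wild type and at 392 and 347 in the deletion strain, and LAP4 mRNA at 132 and 139 CPM in old wild type and 144 in the old deletion library. For LAP4 footprints in wild type the log2 fold change was -0.49 ± 0.42 with both young libraries, 0.20 without library 1 and -0.96 without library 2. In the deletion strain both old LAP4 footprint values lay below both young ones (-0.78 ± 0.42, edgeR adjusted p 0.226), with -1.17 without young library 1 and -0.25 without library 2. For PRB1 footprints there the value was 0.28 ± 0.65, with -0.35 and 1.41. Over all 38 members the median in wild-type footprints was 0.30 without young library 1 and -0.26 without young library 2, and in deletion footprints -0.37 without young library 1 and 0.39 without library 2.

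**Figure D4:**
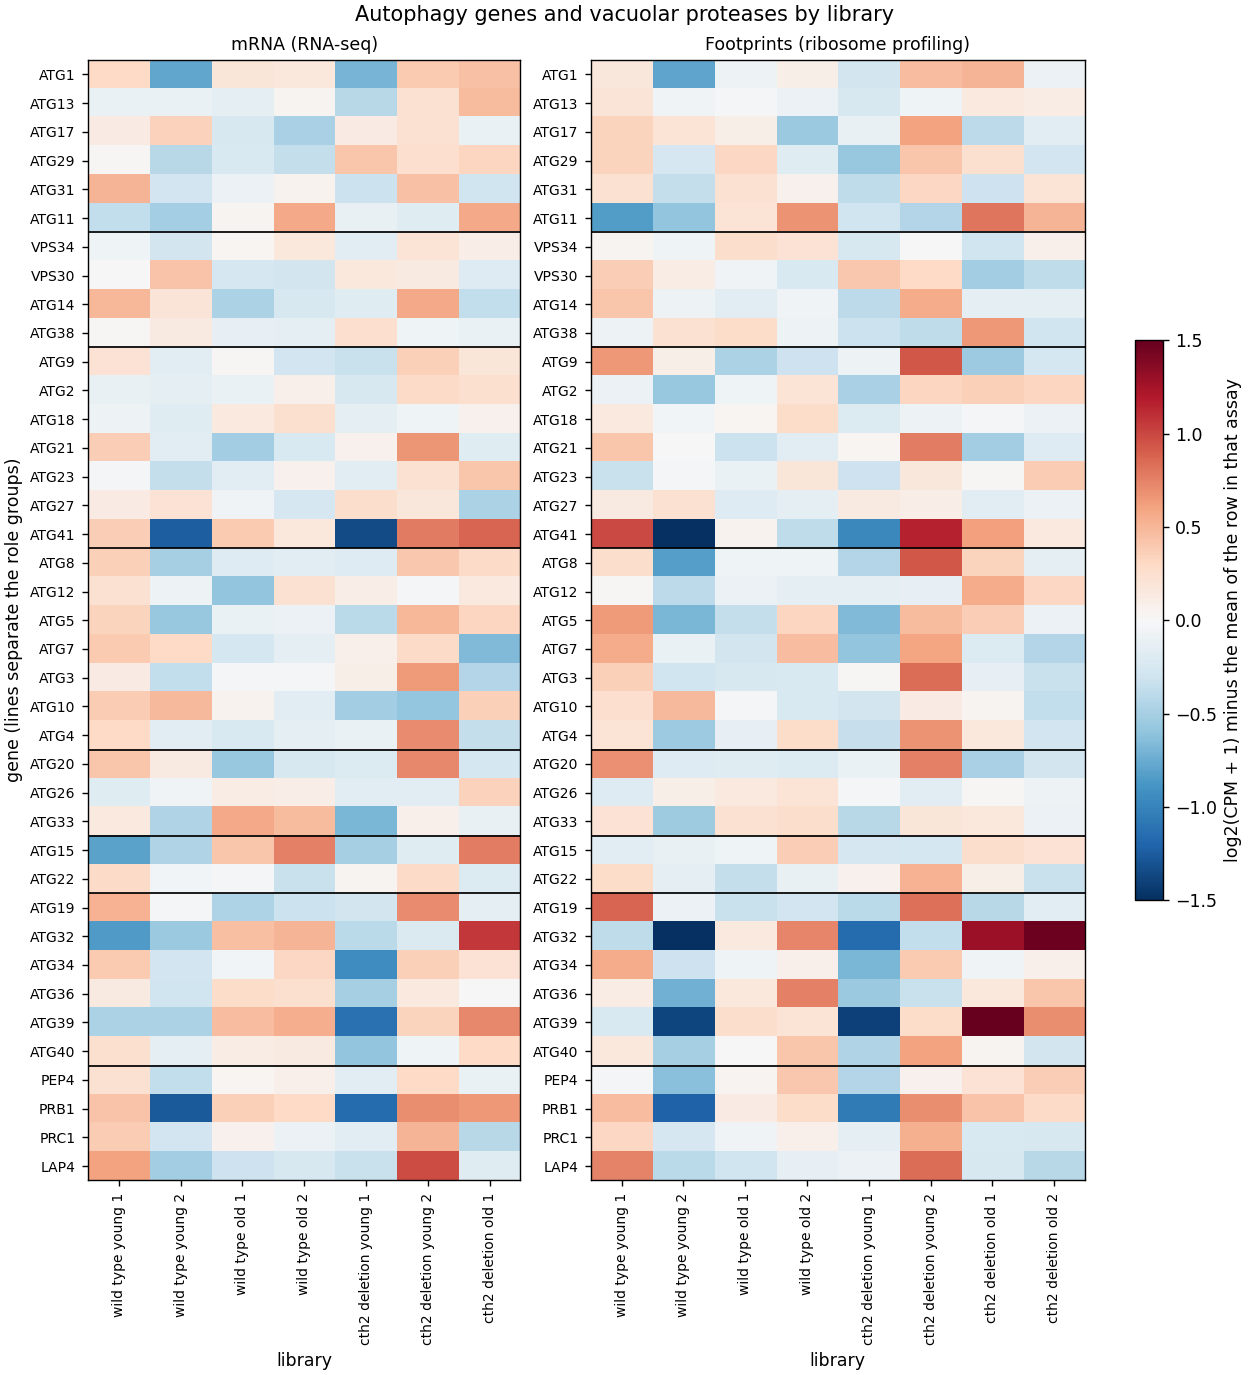
Rows are 39 members in role order and columns are libraries, with mRNA on the left and footprints on the right; colour is log2(CPM + 1) minus the mean of the row in that assay. Wild-type young library 1 and deletion young library 2 are red in most rows, ATG41 and PRB1 are dark blue in wild-type young library 2 and deletion young library 1, and ATG32 and ATG39 are reddest in the old deletion footprints.

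Beside these age differences, the summed CPM of 8 daughter-cell genes, such as the daughter-specific DSE1 and the chitinase CTS1, was 1298 and 1911 in young and 1591 and 1724 in old wild-type footprints, but 2146 and 1713 in young and 712 and 855 in old deletion footprints. None of the 8 genes was at 0 in any group. In deletion footprints 5 of the 8 fell with age, CTS1 by 1.41 and EGT2 by 1.85 on the log2 scale (edgeR adjusted p 0.0181 and 0.00674), and all 8 had a negative difference. Of the 10 glucose-depletion genes, 3 rose and 1 fell in the same comparison. The part of the makeup of the cultures in the values of ATG32, ATG11 and VPS30 was not tested.

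No member was called between the strains, in a test that did not call the deleted gene either. TIS11 itself had log2 differences of -4.01, -4.56 and -4.88 in young mRNA, young footprints and old footprints, with edgeR adjusted p of 0.715, 1.00 and 0.127, so a count of 0 does not show that members did not differ. In young mRNA, young footprints and old footprints, edgeR called 0 of 39, 0 of 38 and 0 of 38 members, and 0% of all genes. At an unadjusted p under 0.05 there was 1 member in young mRNA (1.65% of all genes), none in young footprints (1.73%) and none in old footprints (5.09%), and DESeq2 called no member in these comparisons. Both deletion libraries lay above both wild-type ones for 3 members in young mRNA, 1 in young footprints and 7 in old footprints, against 8.9%, 11% and 24.5% of all genes, and below them for 2, 5 and 7 members, against 10.4%, 9.1% and 23.6%. The 1 member was ATG10, the E2-like enzyme for Atg12, with mRNA at 17.6 and 19.0 CPM in young wild type and at 8.98 and 8.58 CPM in the young deletion strain (log2 fold change -1.06 ± 0.27, edgeR adjusted p 1.00). In the single old deletion mRNA library ATG10 was at 17.3 CPM, above the old wild-type libraries at 13.9 and 11.8. ATG32 and ATG39 footprints in old cells were higher in both deletion libraries than in both wild-type libraries, with log2 differences of 0.97 ± 0.45 and 1.01 ± 0.62 (edgeR adjusted p 1.00 for both). In the same comparison all 8 daughter-cell genes were lower in both old deletion libraries, by log2 differences from -0.66 to -1.53, all with an unadjusted p under 0.05 and none called by edgeR, and their part in the values of ATG32 and ATG39 was not tested. A fit of the 4 old footprint libraries alone called these 2 of 38 members (5.26%), and 323 of 5252 genes in all (6.15%). The difference between the strains in the age response was 0.67 ± 0.72 for ATG32, 0.46 ± 0.94 for ATG39 and -0.15 ± 0.31 for ATG11, and edgeR called no member and 0% of all genes for it (edgeR adjusted p 1.00 for these 3), with no member and 2.86% of all genes at an unadjusted p under 0.05 and no member called by DESeq2.

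In mRNA of old deletion cells, measured in 1 library and so not tested, 13 members lay above both young deletion libraries, 12 below both and 14 between them. The same counts over all genes were not made, so these counts do not set the members apart from other genes. ATG32 was at 45.1 CPM there, against 15.8 and 18.1 CPM in the young deletion libraries, and ATG15 at 29.1 against 11.5 and 14.6. ATG11 was at 55.1 CPM against 34.1 and 32.4, and ATG39 at 21.4 against 5.26 and 16.2. ATG3, the E2-like enzyme for Atg8, was at 21.4 CPM against 31.3 and 46.4, and ATG7 at 19.5 against 33.4 and 38.8. PRB1 at 476 CPM lay between 135 and 490, its young values.

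Footprints per mRNA differed more between members than between lysates. The ratio of footprint to mRNA CPM, both scaled over all 15 libraries, was computed in the 7 lysates with both assays for genes with at least 20 mRNA counts in each, which left 38 members of 5276 genes with a median of 1.00 over all genes. PRB1 had a median ratio of 5.35, with 4.56 to 5.75 over the lysates, above that of 99.5% of genes, and LAP4 had 4.44, from 3.63 to 4.89. ATG41 (2.43) and ATG8 (2.15) were above 93.6% and 90.8% of genes. At the other end stood the Atg12 branch of the conjugation system: ATG10 had 0.161 (0.132 to 0.284, from 3 to 9 footprint counts per library, with the lowest ratio from 3 counts, which is the floor), ATG5, the target of Atg12, 0.169 (0.125 to 0.236) and ATG12 itself 0.253 (0.225 to 0.434), and ATG14 had 0.297 (0.228 to 0.362). These 4 were above at most 8.89% of genes. Their footprints were few. Those of ATG5 and ATG12 fell to 2.79 and 2.51 CPM in young wild-type library 2, where 3 counts were 0.836 CPM. Those of ATG14 fell to 2.48 CPM in young deletion library 1, where 3 counts were 1.06 CPM. The enzymes of the Atg8 branch were higher, ATG3 at 1.95 and the protease ATG4 at 0.651. The medians of the receptors with a value in every lysate lay between 0.600 and 0.854. Over single lysates ATG32 ranged from 0.264 to 1.00, ATG36 from 0.431 to 0.957 and ATG40 from 0.503 to 1.02. ATG19 ranged from 0.681 to 1.04 and ATG34 from 0.669 to 0.966. Single lysates of ATG39, below 20 mRNA counts in 1 of them, ranged from 0.423 to 1.78. In all, 11 of the 38 members were in the lowest 25% of genes and 12 in the highest 25%.

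**Figure D5:**
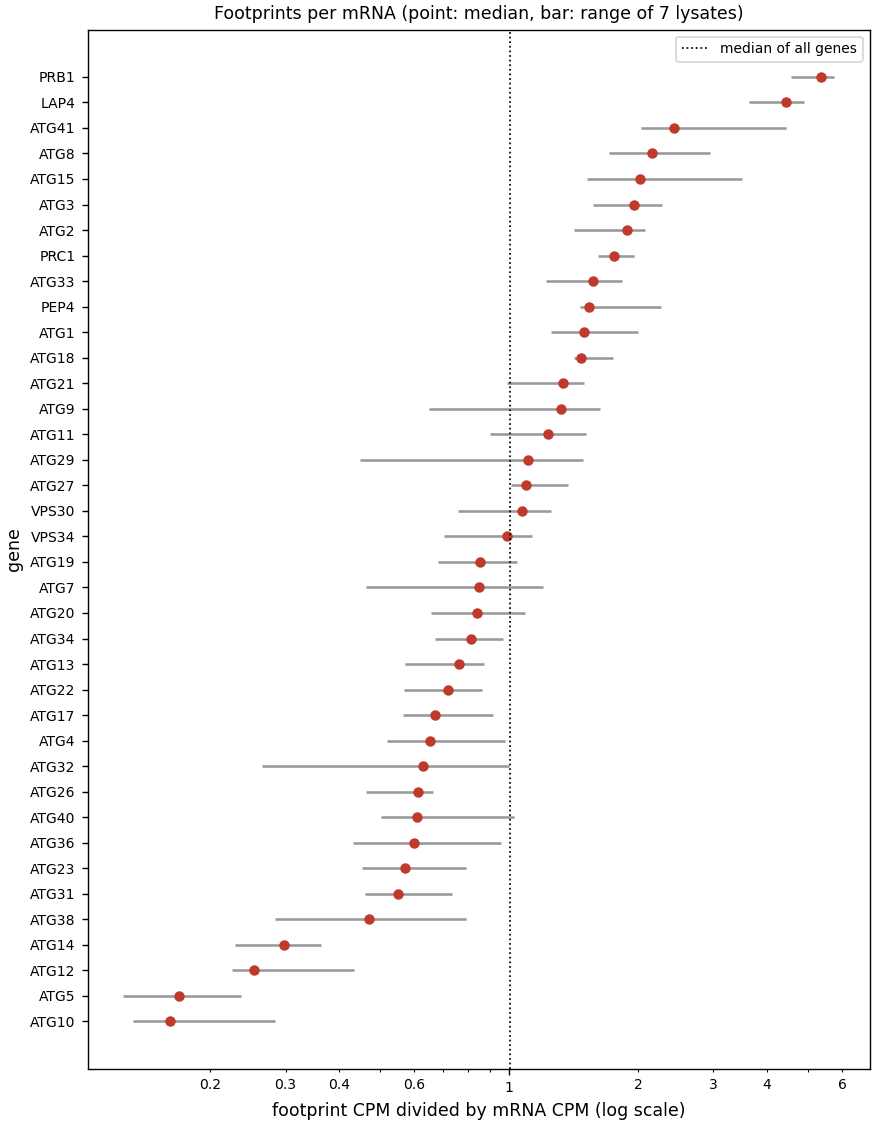
Points are the median of footprint CPM divided by mRNA CPM (log scale) over 7 lysates, bars the lowest and highest lysate, for 38 members, and the dotted line is the median of all genes. PRB1 and LAP4 stand at the top, and ATG10, ATG5, ATG12 and ATG14 at the bottom, with ranges that do not meet the dotted line.

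Whether footprints changed by more or less than mRNA, which is translational efficiency, was tested in 1 model over both assays, and a change was called for no member by edgeR in wild type with age (0 of 39, 0.0661% of all genes) or between the young strains (0 of 39, 0%), and DESeq2 called none. At an unadjusted p under 0.05 the shares of all genes were 6.78% and 1.77%, and the 1 member was ATG15 with age (log2 -0.92 ± 0.31, edgeR adjusted p 0.595), whose ratio of footprints to mRNA was 3.50 and 2.89 in young and 1.59 and 1.68 in old wild-type lysates, with no overlap. With each lysate as a block, edgeR gave ATG15 an adjusted p of 0.0576 and called ATG41 (log2 -0.71 ± 0.23, adjusted p 0.0492), where 6.79% of all genes were called; between the young strains this fit called no member and 0.0661% of all genes. The ATG41 ratio was 4.44 and 2.39 in young and 2.36 and 2.03 in old wild-type lysates, so that young lysate 2 and old lysate 1 were nearly equal. PRB1 kept a ratio of 5.41 and 5.67 in young and 4.64 and 5.35 in old wild-type lysates.

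Genes that act around autophagy were described from 6 lists. With age, edgeR called none of their members in wild-type mRNA or wild-type footprints, and 7 in deletion footprints, where 17.2% of all genes were called. Of 21 genes of TORC1 and nutrient signalling, GCN4, the activator of amino acid synthesis genes, fell (115 against 239 CPM, log2 -1.06 ± 0.20, edgeR adjusted p 0.0181), and the other 20 were not called. Of 16 regulators of ATG genes, 15 of them tested, the helicase DHH1 (304 against 556 CPM, -0.87 ± 0.14, edgeR adjusted p 0.0127) and the decapping factor PAT1 (-0.57 ± 0.14, edgeR adjusted p 0.0384) fell and the histone demethylase RPH1, a repressor of ATG genes, rose (63.8 against 36.7 CPM, 0.80 ± 0.21, edgeR adjusted p 0.0438). One of 20 genes of trafficking and vacuole fusion fell, PEP3 of the HOPS tether (-0.81 ± 0.18, edgeR adjusted p 0.0292). Among 10 other vacuolar hydrolases ATG42, a carboxypeptidase, fell (193 against 462 CPM, -1.26 ± 0.32, edgeR adjusted p 0.0382), and among 14 subunits of the vacuolar proton pump VMA13 fell (-0.65 ± 0.14, edgeR adjusted p 0.0251). No call was made among 3 protease inhibitors. Their median was -1.11 in deletion footprints, over 3 genes only. Their values in wild type or without a young library are not given here. The median of the 14 proton pump genes was -0.48 in wild-type mRNA, -0.28 in wild-type footprints and -0.24 in deletion footprints, with 8, 7 and 7 of them lower at an unadjusted p under 0.05, against 9.6%, 10.5% and 18.2% of all genes.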

How the data were processed

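The authors deposited 1 table per library with a raw count and a length per gene, per the file headers, with no normalization. The submitters' processing notes name cutadapt 3.4, Bowtie 1.1.2, STAR 2.7.9a and the build R64, without roles. The counting program and its use of strand are not given in the sources used here, so reads of ATG29 and the overlapping YPL165C cannot be told apart. No row without a gene name entered a total.

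Tests used edgeR 4.0.16 in R 4.3.3 (TMM factors, filterByExpr by group, robust quasi-likelihood fit, 1 mean per group, Benjamini-Hochberg adjustment over all genes of a comparison). The fits held 7 RNA-seq libraries (5991 genes, biological coefficient of variation 22.7%), 8 ribosome profiling libraries (5308 genes, 21.5%) and all 15 libraries for translational efficiency (6050 genes, 22.1%). The single old deletion RNA-seq library formed a group of its own in the fits. Only the main edgeR fit was tested on simulated counts with known changes, for the age comparisons of wild-type mRNA, wild-type footprints and wild-type translational efficiency. In all, 9 comparisons were tested. Of the 40 members, 39 passed the filter in the RNA-seq and combined fits (not ATG16) and 38 in ribosome profiling (neither ATG16 nor ATG10). Alternatives were edgeR's RLE factors, no filter, DESeq2 1.42.0, only the groups compared, the replicate number or lysate as a block, and leaving out each library.

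Values in every library, or their range, were given for the proteases, ATG8, ATG1, ATG19, ATG41 and called members. The same holds for the 3 highest and 3 lowest members of each age comparison with a mean of at least 10 CPM. Other comparisons name members with an unadjusted p under 0.05. ATG7, ATG17 and others named outside that rule were chosen after their values were seen. Members and lists were chosen with earlier results of these data known. Promoter windows come from the R64 RefSeq genome.

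Same-numbered RNA-seq and ribosome profiling libraries come from aliquots of 1 lysate per the labels, and deviated together (r = 0.741 for young wild type, 0.782 for the young deletion strain and 0.140 for old wild type), so the lysate pairs them. Numbers are not stated to pair strains or ages. The labels do not say whether replicates were separate cultures, so p-values measure the spread between these libraries, which may be technical. Counts carry no molecular identifiers, and floors cover counting error only.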

Additional observations from a re-analysis of the deposited data

How the results depend on the processing

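RLE factors and no filter on low counts left the number of members called as it was in all 9 comparisons. DESeq2 called 2 members in wild-type mRNA with age (ATG15 and ATG32) in place of 0, against 4.34% of all genes. A fit of only the groups compared called 0 in place of 1 in wild-type footprints and 1 in place of 3 in deletion footprints (ATG32). Between the old strains it called 2 in place of 0 (ATG32 and ATG39). Of all genes, that fit called 1.42%, 3.16% and 6.15% in these comparisons. With the replicate number as a block, 0 members were called in wild-type and in deletion footprints with age, against 0.867% and 4.75% of all genes. With the lysate as a block, 1 was called for translational efficiency in wild type. Without 1 library, the count was 0 to 0 in wild-type footprints and 0 to 6 in deletion footprints. Each fit without 1 library left 1 library in a group, and the calls over all genes in these fits are given at the end of this paragraph. The replicate numbers did not pair the strains: deviations of the young strains from their means had r = -0.660 in mRNA and -0.824 in footprints. With the young numbers crossed between strains, an alternative chosen after seeing the data, 16, 14 and 17 members (41.0%, 36.8% and 44.7%) were called in wild-type mRNA, wild-type footprints and deletion footprints with age, against 35.4%, 43.3% and 53.0% of all genes, and 1 between the young and 2 between the old strains in footprints, against 0.961% and 7.74%. The cause of these changes was not tested. Over all genes, 57 were called in wild-type mRNA, against 260 by DESeq2, 91 with only the groups compared, 0 with the block and 1 to 15 without 1 library. In wild-type footprints 158 were called, against 319, 74, 46 and 14 to 77, in deletion footprints 914, against 932, 164, 252 and 46 to 1206, and for translational efficiency in wild type 4, against 20, 5, 411 and 0 to 4. Between the old strains 0 were called, against 22 by DESeq2 and 323 with only the groups compared.

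For 42 values of named members, 350 of 423 alternative values kept direction and side of the threshold, 21 lost and 29 gained the call, and 23 changed sign. All 21 losses fell on the few called values: ATG11 footprints in both strains, and ATG32 and VPS30 footprints in the deletion strain. Most of the 350 were uncalled values that stayed uncalled, so that number does not show that the calls were stable. Without 1 library, log2 fold changes in wild-type mRNA ran from -0.18 to 0.42 for PEP4, -0.10 to 1.59 for PRB1, -0.40 to 0.28 for PRC1, -0.89 to 0.25 for LAP4, -0.54 to 0.33 for ATG8, -0.13 to 0.99 for ATG1 and -0.10 to 1.58 for ATG41. In wild-type footprints they ran from -0.91 to 0.001 for ATG20, -0.26 to 1.42 for PRB1, -0.31 to 0.26 for PRC1, -0.96 to 0.20 for LAP4, -0.34 to 0.77 for ATG8, -0.16 to 0.84 for ATG1 and -1.16 to 1.48 for ATG41. In deletion footprints they ran from -0.35 to 1.41 for PRB1, -0.84 to 0.55 for ATG8, -0.25 to 0.50 for ATG1, -1.12 to 0.13 for ATG19 and -0.77 to 1.38 for ATG41. Under the crossed numbers ATG41 changed sign to 0.12 in wild-type and 0.34 in deletion footprints. ATG16 and the footprints of ATG10 were too low to be tested.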

Other observations

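The upstream windows of the other members were searched for the same motifs. Of the 6 receptors, ATG19, ATG32 and ATG39 held both GATAAG and AGGGG, ATG40 held GATAAG, ATG34 held AGGGG, and ATG36 held neither. Of the 4 proteases, PRB1 and PRC1 held both, PEP4 held GATAAG and LAP4 held AGGGG. The other members with GATAAG were ATG29, ATG14, ATG9, ATG18, ATG8, ATG33 and ATG15, and those with AGGGG were ATG13, ATG29, ATG9, ATG18, ATG27, ATG8, ATG3, ATG10, ATG4, ATG20 and ATG26. TGACTC was in the windows of ATG29, VPS34, ATG18, ATG21, ATG8 and ATG4, and of these ATG29, ATG18 and ATG8 held all 3 motifs. ATG1, ATG5, ATG11 and ATG41 were among the members that held none of the motifs searched.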
